A study of Mus musculus with 4 samples.

Results

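Transcript levels of 9 genes that encode the other histone H3 lysine 4 (H3K4) methyltransferases and their shared subunits were followed across single cells of mouse bone marrow. The genes were Kmt2a, Kmt2b, Setd1a, Setd1b, Men1, Ash2l, Wdr5, Rbbp5 and Dpy30. They were chosen by symbol and not by level, though with earlier results of these data known. All 9 were present among 32285 gene features. The material was Kit-positive bone marrow carrying the CD45.2 allele, collected 10 weeks after transplantation. The 4 groups were a control, an Mll3-deleted, an Mll4-deleted and an Mll3/4-deleted sample, with 1 library each. The labels do not give the alleles, the agent or Cre driver of deletion, the number of donors or hosts, or the animals' age beyond that time. RNA and 13 surface antibodies were read from the same cells, and 2 further antibodies served as hashtags whose meaning the labels do not state.

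Methylation of H3K4 marks active promoters and enhancers and is laid down by the COMPASS family of complexes. Each complex holds 1 catalytic subunit, which sets where the complex acts, and a common core of WDR5, RBBP5, ASH2L and DPY30 that stimulates the enzyme. MLL3 and MLL4, the proteins of Kmt2c and Kmt2d, work mainly at enhancers. The enzymes studied here work mainly at promoters: MLL1 (Kmt2a) and MLL2 (Kmt2b) bind menin (Men1), and SETD1A and SETD1B form the SET1 complexes. Kmt2a is required for haematopoietic stem cells and is rearranged in acute leukaemias.

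The genes lie on 8 chromosomes in GENCODE M21 (GRCm38). Kmt2a (ENSMUSG00000002028) is at chr9:44803355-44881296 on the minus strand, Kmt2b (ENSMUSG00000006307) at chr7:30568858-30588726 on the minus strand, Setd1a (ENSMUSG00000042308) at chr7:127776670-127800122 on the plus strand and Setd1b (ENSMUSG00000038384) at chr5:123142193-123168629 on the plus strand. Men1 (ENSMUSG00000024947) is at chr19:6334979-6340891 on the plus strand. Of the core subunits, Ash2l (ENSMUSG00000031575) is at chr8:25815996-25847694 on the minus strand, Wdr5 (ENSMUSG00000026917) at chr2:27515157-27536535 on the plus strand, Rbbp5 (ENSMUSG00000026439) at chr1:132477365-132505659 on the plus strand and Dpy30 (ENSMUSG00000024067) at chr17:74299474-74323944 on the minus strand. Kmt2a overlaps 1 other counted gene, AC061963.1 on the opposite strand. Whether the counting used strand is not given in the sources used here, so reads from that overlap may not be separable. None of the other members overlaps a counted gene.

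Promoter windows running from 250 bases before to 50 bases after the transcription start were taken from a table of RefSeq starts (GRCm38.p6), which matched 6 of the 9 members. The table used here has no entry for Kmt2b, Setd1b and Ash2l. The windows of Kmt2a, Men1, Wdr5 and Dpy30 are shown because these were the members whose all-cell level differed by at least 1.5-fold between the Mll3/4-labelled and the control library. Capitals mark the GC box (GGGCGG) and the E-box (CAGCTG), each searched on both strands. The Kmt2a window is at chr9:44881240-44881539 (minus strand), Men1 at chr19:6334729-6335028 (plus), Wdr5 at chr2:27514897-27515196 (plus) and Dpy30 at chr17:74323895-74324194 (minus).
Kmt2a: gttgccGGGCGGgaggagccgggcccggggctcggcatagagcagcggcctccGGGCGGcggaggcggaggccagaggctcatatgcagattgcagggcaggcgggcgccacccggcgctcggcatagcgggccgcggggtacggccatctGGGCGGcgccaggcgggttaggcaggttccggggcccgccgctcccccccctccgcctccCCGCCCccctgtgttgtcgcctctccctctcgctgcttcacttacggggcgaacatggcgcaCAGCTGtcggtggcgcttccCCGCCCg
Men1: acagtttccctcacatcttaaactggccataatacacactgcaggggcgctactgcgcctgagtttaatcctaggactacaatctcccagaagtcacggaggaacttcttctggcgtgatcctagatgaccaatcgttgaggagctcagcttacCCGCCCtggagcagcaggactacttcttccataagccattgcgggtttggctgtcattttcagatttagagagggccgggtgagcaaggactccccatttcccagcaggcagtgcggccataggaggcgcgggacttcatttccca
Wdr5: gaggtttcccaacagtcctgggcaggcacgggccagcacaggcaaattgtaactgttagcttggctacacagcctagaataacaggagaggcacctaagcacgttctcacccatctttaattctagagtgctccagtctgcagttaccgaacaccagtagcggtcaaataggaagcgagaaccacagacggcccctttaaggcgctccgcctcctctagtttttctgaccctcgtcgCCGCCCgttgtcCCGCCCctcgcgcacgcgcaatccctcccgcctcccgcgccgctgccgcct
Dpy30: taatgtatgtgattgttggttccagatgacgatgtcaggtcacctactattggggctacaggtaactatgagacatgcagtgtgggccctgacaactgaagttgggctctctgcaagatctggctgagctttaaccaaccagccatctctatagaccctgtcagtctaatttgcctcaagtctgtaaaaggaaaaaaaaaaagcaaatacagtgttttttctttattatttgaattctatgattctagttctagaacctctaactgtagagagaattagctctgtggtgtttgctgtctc
The Kmt2a window held 36 CpG dinucleotides, 5 GC boxes and 1 E-box. Wdr5 held 22 CpG and 2 GC boxes, and Men1 held 11 CpG and 1 GC box. The Dpy30 window was the poorest of the 6, with 1 CpG and neither motif, against a median of 7 CpG over 32817 RefSeq windows. Setd1a had 35 CpG and 1 E-box, and Rbbp5 had 16 CpG and no match. A GC box was present in 35.6% of all windows and an E-box in 16.3%. An ETS motif (CCGGAAG, in 8.86% of windows) and an EBF1 motif (TCCC and GGGA separated by a pair of bases, in 0.905%) had no match in the 6 windows. These are matches of letters and are not measured binding. Men1 has 3 windows in that table and Dpy30 has 4, of which the one nearest the annotated gene start is shown, so the features describe that start.

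After filtering, 5350 to 7146 cells per library were kept, with a median per cell of 9965 to 16963.5 UMIs (unique molecular identifiers, counted transcripts), except for the Mll4-labelled library with 5142. Pairs of libraries shared 3 to 15 kept barcodes. Levels are given as CPM, the counts summed over cells after scaling the total of the same cells to 1000000, with exact 95% Poisson intervals. Ratios carry exact binomial intervals. With 1 library per group these cover counting error only, and every difference is one between libraries and not between conditions. As a check of the labels, Kmt2c stood at 47.9 CPM in control, 27.2 in the Mll3-labelled, 59.2 in the Mll4-labelled and 34.8 in the Mll3/4-labelled library. Kmt2d was at 25.8, 21.6, 25.0 and 24.7 CPM in the same order, so it was no lower in the Mll4-labelled library beyond counting error (log2 ratio -0.04, interval -0.15 to 0.06). These levels cover all kept cells, so both genes' values mix class makeup with level, above all in the Mll3/4-labelled library. Compared inside the B-lineage class only, that library had Kmt2d past 1.5-fold below control, as listed at the end of the Results. The 3′ counts do not check a deletion elsewhere in the gene, and the libraries are therefore named by their labels. The Mll4-labelled library also had 0.519 CPM of Xist against 955 to 1839 in the others, so that a sex difference and the deletion cannot be told apart there. Clusters were named from marker genes, and 10 B-cell progenitor markers summed to 11408 CPM inside the control cells so named and to 10634 CPM inside the Mll3/4-labelled ones. Those cells made up 6.56% of control cells and 98.7% of Mll3/4-labelled cells.

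In control marrow, with all UMIs as the total, the menin-dependent enzyme Kmt2a and its partner Men1 were highest in B-cell progenitor-like cells. For Men1 the interval overlapped that of the next class. The core subunits Ash2l, Wdr5 and Dpy30 were highest in erythroid progenitor-like cells. For Wdr5 this lead passed to neutrophil-like cells once marker genes were left out of the total. Kmt2a reached 223.6 CPM in the B-lineage cells (interval 207.4 to 240.6). It was 169.7 CPM in T, NK and innate lymphoid-like cells (51 counts), 162.4 in basophil/mast-like cells, 140.5 in HSC/MPP-like cells (stem and multipotent progenitors) and 131.2 in megakaryocyte-like cells. The 4 other classes lay between 67.7 CPM in granulocyte progenitor-like and 76.5 CPM in monocyte/macrophage progenitor-like cells. With all UMIs as the total, Kmt2a thus fell into an upper and a lower set of classes. Within each, every neighbouring pair had overlapping intervals, while megakaryocyte-like and monocyte-like cells did not overlap. B-cell progenitor-like cells joined the upper set only through the T/NK-like class and did not overlap basophil/mast-like cells (140.5 to 186.6). With marker genes left out of the total, the neutrophil-like level rose out of the lower set. From highest to lowest class the range was 3.30-fold. Depth differed between the classes, with a median of 4410 UMIs in B-cell progenitor-like, 14830.5 in HSC/MPP-like and 44041 in erythroid cells. With every cell thinned to 2000 UMIs, 2 of the 9 members kept their highest class, Kmt2a and Men1. Kmt2a was at 293.9 CPM in B-cell progenitor-like cells (259.1 to 332.0), with 179.5 CPM next. Men1 was at 33.0 CPM there (22.1 to 47.4), overlapping erythroid cells at 20.6 CPM (16.1 to 25.9). The erythroid lead of the core subunits did not hold then: Dpy30 was at 224.9 CPM in granulocyte progenitors and 203.4 CPM in erythroid cells, Ash2l at 76.0 CPM in megakaryocyte-like and 74.4 CPM in erythroid cells, and Wdr5 at 40.0 CPM in both T/NK-like (4 counts) and erythroid cells. Kmt2a also varied with depth within the class, and in control B-cell progenitor-like cells with at least 12000 UMIs it was at 126.7 CPM.

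Men1, whose product menin tethers MLL1 and MLL2 to chromatin, ranged 3.21-fold, from 27.1 CPM in B-cell progenitor-like to 8.44 CPM in neutrophil-like cells. Between them were HSC/MPP-like cells at 21.3 CPM, erythroid cells at 20.1, megakaryocyte-like cells at 19.8, granulocyte progenitors at 18.1, monocyte progenitors at 17.6, basophil/mast-like cells at 16.4 and T/NK-like cells at 9.98 CPM, the last from 3 counts. The Men1 interval in B-cell progenitor-like cells (21.7 to 33.4) overlapped that in HSC/MPP-like cells (19.5 to 23.2). Kmt2b, the closest relative of Kmt2a, was the flattest of the 9. With all UMIs as the total, it ran from 37.2 CPM in B-cell progenitor-like to 29.9 CPM in neutrophil-like cells. In this 1.24-fold range all neighbouring classes overlapped. With marker genes left out of the total, neutrophil-like cells became its highest class and the range was wider.

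The SET1 enzymes did not share an order. Setd1a stood at 28.9 CPM in erythroid cells, 26.4 in B-cell progenitor-like, 25.3 in megakaryocyte-like and 24.3 in HSC/MPP-like cells, then 18.9, 18.6 and 18.3 in basophil/mast-like, granulocyte and monocyte progenitors, and 14.6 in neutrophil-like cells. Its highest value, 39.9 CPM in T/NK-like cells, rested on 12 counts. With all UMIs as the total, Setd1b was highest where Setd1a was lowest, at 49.5 CPM in neutrophil-like cells (46.7 to 52.4). It had 45.4 CPM in megakaryocyte-like cells, with an overlapping interval (41.6 to 49.4). Further values were 44.3 CPM in the basophil/mast class, 41.6 in B-cell progenitor-like cells and 26.2 in granulocyte progenitor-like cells at the bottom. With marker genes left out of the total, neutrophil-like cells were no longer the lowest class of Setd1a.

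Among the core subunits, Dpy30, the small subunit that binds ASH2L, reached 247.7 CPM in erythroid cells, 197.7 in granulocyte progenitors and 169.5 in monocyte progenitors. The first 3 of these levels did not overlap each other. Megakaryocyte-like cells followed at 161.2 CPM, with 148.8 CPM in HSC/MPP-like, 145.8 in B-cell progenitor-like and 106.8 in neutrophil-like cells. Ash2l, the subunit that links the core to nucleosomes, was at 79.95 CPM in erythroid cells, above the next class without overlap. It lay between 49.9 and 70.8 CPM in 7 further classes and at 25.1 CPM in neutrophil-like cells, apart from all of them. Wdr5, the scaffold that joins catalytic subunits to the core, was at 51.7 CPM in erythroid cells, 42.6 in megakaryocyte-like, 35.8 in HSC/MPP-like, 29.3 in B-cell progenitor-like and 23.3 in T/NK-like cells (7 counts). Rbbp5 varied little, from 19.96 CPM (6 counts) to 11.6 CPM.

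**Figure D1:**
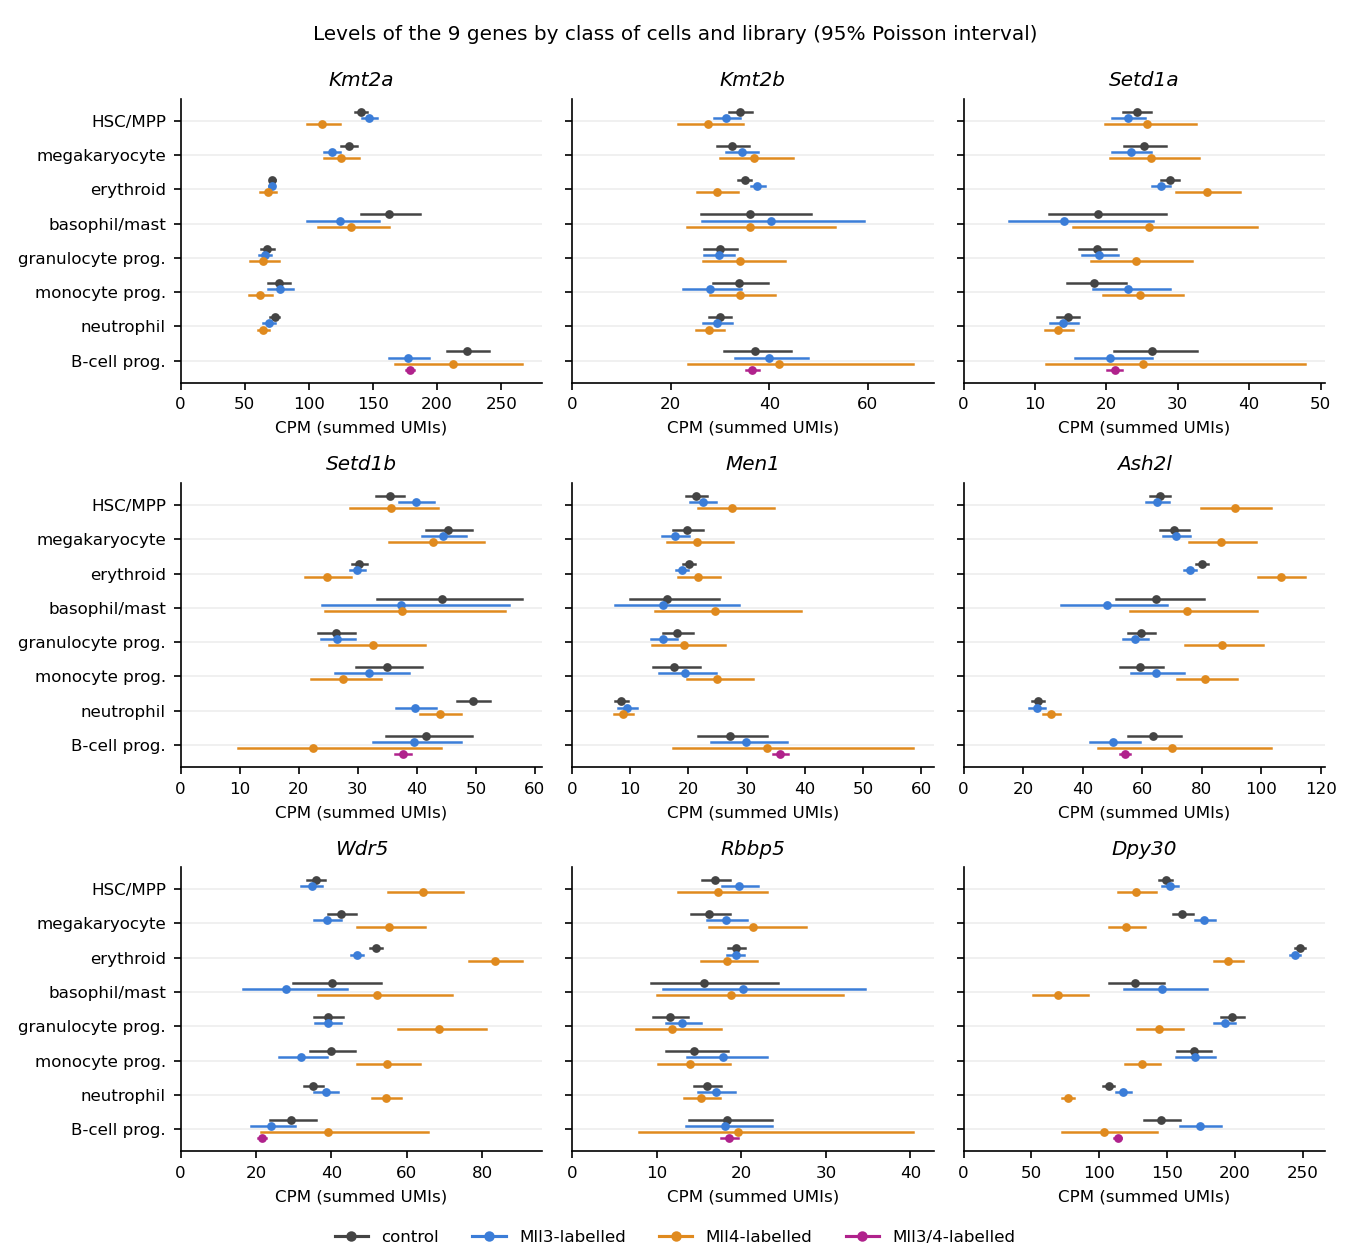
Level of each member in CPM (horizontal axis, linear, from 0) by cell class, with points for each library that has at least 50 cells of the class and lines for exact 95% Poisson intervals. In control, Kmt2a reached 223.6 CPM in B-cell progenitor-like cells, and Dpy30 247.7 CPM in erythroid progenitor-like cells.

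The neutrophil values share a large denominator, since 8 neutrophil marker genes took 373374 CPM in those cells. With UMIs outside the marker genes as the total, the control neutrophil level became 40.3 CPM for Ash2l, which was still the lowest class, 13.6 CPM for Men1, then the second lowest, and 171.5 CPM for Dpy30, which was no longer lowest. The class with the highest level was the same for 6 of the 9 members under that total. Wdr5, Kmt2b and Rbbp5 did not keep theirs and were then highest in neutrophil-like cells. With all UMIs as the total, 5 of the members had the same leading class in control and in the Mll3- and Mll4-labelled libraries. Kmt2a led in B-cell progenitor-like cells at 177.4 CPM in the Mll3-labelled and 212.6 CPM in the Mll4-labelled library, and Men1 did so at 29.9 and 33.6 CPM. Ash2l led in erythroid cells at 76.1 and 106.5 CPM, Wdr5 at 46.7 and 83.3 CPM and Dpy30 at 244.1 and 195 CPM. The leading class differed between these libraries for the 4 others. Setd1b, for example, led in megakaryocyte-like cells (44.5 CPM) in the Mll3-labelled library.

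Surface B220, an antibody readout that did not enter the clustering, gave the same direction. Kmt2a in control B-cell progenitor-like cells was above the other control cells by 1.33 on the log2 scale, and the B220-high gate gave 1.202. The gate value was 0.50 for Men1, -0.39 for Wdr5 and -0.35 for Dpy30, beside 0.58, -0.60 and -0.42 by class. Within the B220-high gate Kmt2a was at 203.9 CPM in control, 148.1 in the Mll3-labelled, 161.8 in the Mll4-labelled and 177.8 CPM in the Mll3/4-labelled library. The gate held different mixtures, with 89.6% B-cell progenitor-like cells in control, 64.8% in the Mll3-labelled, 70.2% in the Mll4-labelled and 99.2% in the Mll3/4-labelled library.

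Pairs of members were compared over 8 control classes, which share 1 library, without the T/NK-like class, where 7 members had under 20 counts. The closest pair was Ash2l with Men1 (Pearson r = 0.87), followed by Men1 with Setd1a (0.83) and Ash2l with Setd1a (0.80). Ash2l, Men1 and Setd1a were all lowest in neutrophil-like cells (25.1, 8.44 and 14.6 CPM), where marker genes enlarged the total. Dpy30 was also lowest and Setd1b highest there. The correlations were not recomputed without that class, so they may rest on it. Dpy30 and Setd1b ran in opposite directions (-0.83), as did Wdr5 and Kmt2a (-0.55). With the T/NK-like class as the ninth, Ash2l with Men1 was at 0.82. Among 2163 genes searched over the 9 classes, the 3 with the most similar class pattern to Kmt2a were N4bp2, Ywhaz and Rsbn1l (r = 0.97 each). For Dpy30 they were Sdhd, Cyc1 and Mrpl20 (r = 0.98 each), of which Sdhd and Cyc1 encode subunits of the respiratory chain. The 7 further members had fewer than 20 counts in some class and were not matched.

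In the Mll3/4-labelled library, Kmt2a and Men1 stood higher than in control over all kept cells, and Wdr5 and Dpy30 stood lower. Kmt2a was at 91.6 CPM in control, 88.1 in the Mll3-labelled, 77.4 in the Mll4-labelled and 176.8 CPM in the Mll3/4-labelled library, where it was 1.93-fold the control level (log2 0.95, interval 0.91 to 0.98). Men1 was at 18.3, 18.2, 16.7 and 35.4 CPM in the same order, also 1.93-fold (log2 0.95, 0.87 to 1.03). For both, 3 libraries lay close together and the Mll3/4-labelled one lay apart. Wdr5 was at 44.0, 41.8, 61.5 and 21.7 CPM, and the Mll3/4-labelled value was lower by a log2 ratio of -1.02 (-1.10 to -0.94). Dpy30 was at 193.9, 203.4, 118.1 and 114.1 CPM (log2 -0.77, -0.80 to -0.73), low in both libraries labelled with Mll4. Thus 4 of the 9 members were past 1.5-fold, 2 higher and 2 lower. Of all tested genes, 56.9% were past it, 28.2% higher and 28.8% lower. The median log2 ratio was 0.08 over the members and -0.02 over all genes. The share of members past the fold was below that background. Counting each cell equally (mean share per cell) moved Dpy30 to -0.51, inside 1.5-fold, and thinning every cell to 2000 UMIs moved it to -0.48.

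The 5 further members were closer to control. Kmt2b was at 33.5, 34.9, 30.1 and 36.4 CPM across control and the Mll3-, Mll4- and Mll3/4-labelled libraries. Setd1a was at 24.5, 24.0, 21.8 and 21.02 CPM, and Setd1b at 35.5, 33.7, 36.4 and 37.6 CPM. Ash2l was at 65.9, 66.1, 65.0 and 54.3 CPM and Rbbp5 at 17.5, 18.4, 16.4 and 18.4 CPM. Of these, Ash2l in the Mll3/4-labelled library had the log2 ratio farthest from 0 (-0.28, -0.33 to -0.23), and it was -0.07 as a mean share per cell. Over all cells, fewer cells of a type and less RNA per cell cannot be told apart.

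**Figure D2:**
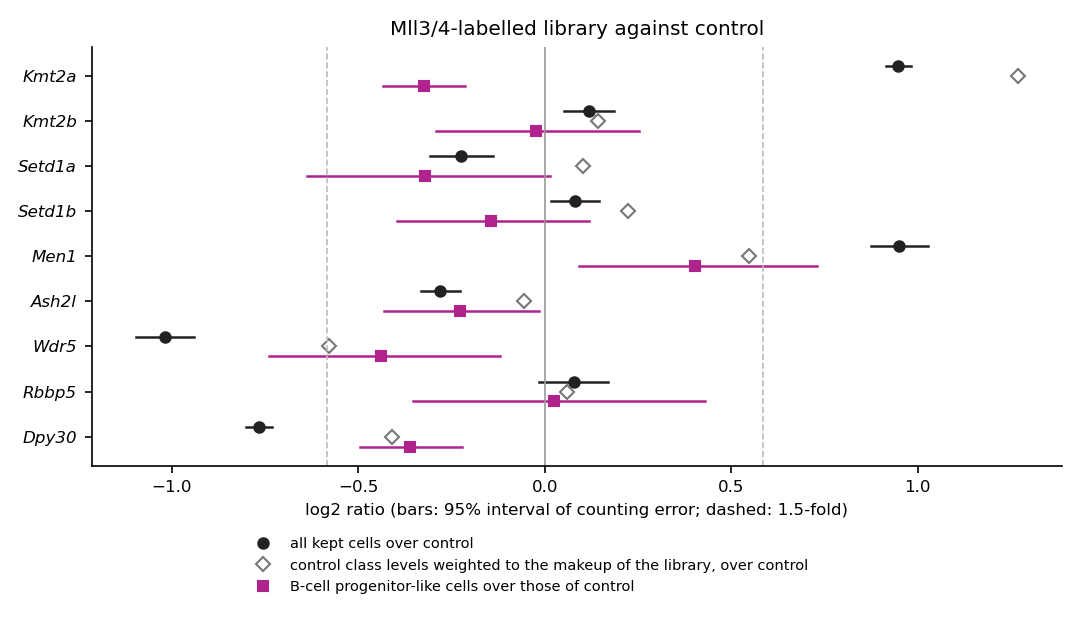
Log2 ratio of each member between the Mll3/4-labelled and the control library (horizontal axis, dashed lines at 1.5-fold) over all kept cells (circles) and within B-cell progenitor-like cells (squares), with exact 95% intervals for counting error; open diamonds are control class levels weighted to the makeup of the Mll3/4-labelled library, over control. Kmt2a lay at 0.95 over all cells and at -0.32 within the class, on opposite sides of 0, whereas Men1, Wdr5 and Dpy30 kept their side.

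The class makeup of the libraries differed, and 97.7% of Mll3/4-labelled UMIs came from B-cell progenitor-like cells against 2.07% in control. Control class levels were therefore weighted to the makeup of the Mll3/4-labelled library. The weighted control value of Kmt2a was 220.8 CPM, above the 176.8 CPM observed. Weighting also carried Men1 from 18.3 to 26.8 CPM (observed 35.4), Wdr5 from 44.0 to 29.5 CPM (observed 21.7) and Dpy30 from 193.9 to 145.9 CPM (observed 114.1). Weighting thus moved Kmt2a by 1.27 on the log2 scale, past its observed difference. It moved Men1 by 0.55, Wdr5 by -0.58 and Dpy30 by -0.41, each short of the observed difference. None of the 9 members was past 1.5-fold between the observed and the weighted level, where 47.2% of all tested genes were. As 97.7% of the UMIs lay in 1 class, these comparisons nearly repeat the ratios within that class and are no separate result.

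Within B-cell progenitor-like cells, Kmt2a was lower and Men1 higher in the Mll3/4-labelled library, and the core subunits Wdr5, Dpy30 and Ash2l were lower. The library holds 6830 such cells and control 469. Nearly all control cells of the class were in clusters 18 and 21 and nearly all Mll3/4-labelled cells in clusters 1, 4, 5, 7 and 22, so the ratios set different clusters side by side. Kit, the receptor used in the sort, was at 83.8 CPM in these control cells, 56.6 in the Mll3-labelled, 190.2 in the Mll4-labelled and 191.8 CPM in the Mll3/4-labelled cells, and its part in the ratios was not tested. Kmt2a was at 223.6 CPM in control, 177.4 in the Mll3-labelled, 212.6 in the Mll4-labelled and 178.7 CPM in the Mll3/4-labelled cells (log2 -0.32, -0.43 to -0.21). The Mll3-labelled and Mll3/4-labelled values were close to each other and below control. Men1 was at 27.1, 29.9, 33.6 and 35.8 CPM, and its ratio in the Mll3/4-labelled cells was 0.40 (0.09 to 0.73). Wdr5 was at 29.3, 24.0, 39.2 and 21.6 CPM (-0.44, -0.74 to -0.12), and Dpy30 at 145.8, 174.0, 103.5 and 113.5 CPM (-0.36, -0.50 to -0.22). Dpy30 was thus higher than control in the Mll3-labelled cells and lower in both libraries labelled with Mll4. Ash2l had 63.6 CPM in the control and 54.3 CPM in the Mll3/4-labelled cells (-0.23, -0.43 to -0.02).

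The promoter-acting enzymes Kmt2b (37.2 and 36.5 CPM), Setd1a (26.4 and 21.2) and Setd1b (41.6 and 37.6), and the core subunit Rbbp5 (18.3 and 18.6), had intervals that included 0 in this class. No member was past 1.5-fold, while 42.5% of all tested genes were. The median log2 ratio was -0.23 over the members and 0.02 over all genes. Scaling by TMM raised every ratio in the class by 0.12, which left Kmt2a at -0.20. Thinned to 2000 UMIs per cell, Kmt2a was at -0.63, past 1.5-fold.

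The Kmt2a ratio in this class was of the size of differences inside a library. Cells carrying 1 hashtag only were at 151.2 and 208.2 CPM for the first and second hashtag of the Mll3/4-labelled library, a log2 difference of 0.46. In control they were at 234.9 and 211.6 CPM, so the second Mll3/4-labelled set lay next to a control set. For Men1 the sets were at 26.3 and 26.7 CPM in control and 32.7 and 39.0 CPM in the Mll3/4-labelled library. Wdr5 was at 30.6 and 28.4 against 21.5 and 22.1 CPM, and Dpy30 at 149.5 and 143.6 against 107.1 and 121.8 CPM. As point values, both Mll3/4-labelled sets lay above both control sets for Men1 and below them for Wdr5 and Dpy30. Over all kept cells no member was past 1.5-fold between the hashtag sets of any library, against 4.45% of tested genes in control, 9.29% in the Mll3-labelled, 9.77% in the Mll4-labelled and 10.7% in the Mll3/4-labelled library. The hashtag sets are not replicates, since the labels do not say what they mark.

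Kmt2a in control B-cell progenitor-like cells differed with the share of G2/M transcripts when depth was not matched, whereas in the 2 depth groups with enough control cells of both kinds the intervals overlapped. In the 156 cells with the lowest share of a 20-gene G2/M list, Kmt2a was at 334.3 CPM, and in the 156 with the highest share at 176.5 CPM (log2 -0.92, -1.18 to -0.66). The Mll3-labelled cells showed 257.1 and 174.4 CPM (-0.56). The Mll3/4-labelled cells showed 173.9 and 179.5 CPM, a difference of 0.05. The contrast between libraries has no test with 1 library each. Depth moved with the split: the median was 3490.5 UMIs in the low and 10522.5 in the high set of control, and 8448.5 and 12731.5 in the Mll3/4-labelled library. In control cells with 1000 to 3000 UMIs, Kmt2a was at 318.7 CPM (242.0 to 411.9) below 500 G2/M CPM and 436.4 CPM (298.5 to 616.0) above. With 3000 to 6000 UMIs it was at 346.9 CPM (296.7 to 403.1) and 312.8 CPM (242.9 to 396.5). Dpy30 was higher in the high set of all 3 libraries. Its highest-over-lowest log2 ratio was 0.64 in control, 0.35 in the Mll3-labelled and 0.55 in the Mll3/4-labelled library. In control with 1000 to 3000 UMIs, Dpy30 was at 120.9 CPM (75.7 to 183.0) below 500 G2/M CPM and 95.5 (38.4 to 196.7) above. With 3000 to 6000 UMIs it was at 91.8 CPM (67.0 to 122.9) and 105.8 CPM (67.1 to 158.8). In Mll3/4-labelled cells it was at 100.3 and 100.4 CPM with 3000 to 6000 UMIs, and at 93.9 and 125.8 CPM with 6000 to 12000. Between the highest and lowest sets 48.1% of all tested genes in control were past 1.5-fold, 40.7% in the Mll3-labelled and 31.4% in the Mll3/4-labelled library.

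Grouped by G2/M share alone, the Kmt2a ratio between the libraries was farthest from 0 in cells with few G2/M transcripts, where depth also differed most. Below 500 G2/M CPM, the level was 334.3 CPM over 210 control cells and 177.9 CPM over 4095 Mll3/4-labelled cells (log2 -0.91, -1.09 to -0.72). Of these, 76 control and 129 Mll3/4-labelled cells had 1000 to 3000 UMIs, 124 and 777 had 3000 to 6000, and most of the other Mll3/4-labelled cells had more. From 500 to 2000 it was at 247.3 and 187.7 CPM (-0.40). From 2000 upwards it was at 175.2 and 175.8 CPM (0.00, -0.15 to 0.17). The number of members past 1.5-fold was 4 in the lowest group (Kmt2a, Setd1a and Setd1b lower, Men1 higher), where 52.2% of all genes were, and 0 in the highest, where 38.9% were. In the lowest group Setd1a was at 26.4 and 16.5 CPM and Setd1b at 51.5 and 34.0 CPM. With 3000 to 6000 UMIs in that group, the ratio was -0.60 (-1.51 to 0.42) for Setd1a and -0.21 (-0.88 to 0.52) for Setd1b. With 1000 to 3000 UMIs it was -3.58 (-9.05 to -0.68) for Setd1a and -1.84 (-3.70 to -0.24) for Setd1b. Those 2 values rest on 1 and 5 Mll3/4-labelled counts. Men1 had 19.8 CPM in the control cells and 35.4 CPM in the Mll3/4-labelled cells of the lowest group (0.84, 0.11 to 1.68), and at 31.1 and 35.0 CPM in the highest (0.17). Wdr5 was lower in the Mll3/4-labelled cells of each group, with -0.50 (-0.89 to -0.09) in the highest.

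Matching on depth per cell changed the size and the direction of the Kmt2a difference. With 1000 to 3000 UMIs per cell, the Mll3/4-labelled cells had 323.9 CPM of Kmt2a and control 352.5 CPM (-0.12, -0.52 to 0.28). With 3000 to 6000 UMIs it was at 336.4 and 232.2 CPM (-0.54, -0.74 to -0.33), and with 6000 to 12000 UMIs at 224.7 and 191.7 CPM (-0.23). From 12000 UMIs the Mll3/4-labelled cells were the higher ones, at 162.2 against 126.7 CPM (0.36, 0.12 to 0.60), with 67 control cells there. Matched on both, cells under 500 G2/M CPM gave a Kmt2a ratio of -0.25 (-0.77 to 0.27) with 1000 to 3000 UMIs and -0.60 (-0.84 to -0.35) with 3000 to 6000 UMIs, and control had fewer than 20 such cells at greater depth. Cells from 500 G2/M CPM upwards gave -0.01 (-0.65 to 0.66), -0.36 (-0.75 to 0.05), -0.15 (-0.36 to 0.06) and 0.42 (0.19 to 0.67) from the lowest to the highest depth. Of these 6 ratios, 2 had intervals that excluded 0, 1 in each direction. By depth alone Kmt2a was thus lower in the Mll3/4-labelled cells from 3000 to 12000 UMIs and higher at the greatest depth. By cluster it was at 301.1 CPM in control cells of cluster 18 and 171.5 CPM in cluster 21. The Mll3/4-labelled clusters 1, 4, 5, 7 and 22 were at 148.8, 237.7, 175.6, 169.0 and 197.0 CPM, all between or below the control clusters. By depth alone, Men1 was higher in the Mll3/4-labelled cells at every depth, from 0.77 with 3000 to 6000 UMIs to 0.13 from 12000 UMIs, where the interval included 0. Wdr5 was lower at every depth, and its interval excluded 0 with 6000 to 12000 UMIs (-0.83, -1.32 to -0.29). Dpy30 was at -0.50 with 1000 to 3000 UMIs, at 0.06 with 3000 to 6000 UMIs and at -0.49 and -0.58 in the deeper groups. Matched on both, Men1 was at -0.096 under 500 G2/M CPM with 1000 to 3000 UMIs, from 5 control counts. Its interval excluded 0 only below 500 with 3000 to 6000 UMIs (1.09) and above with 6000 to 12000 UMIs (0.58, 0.009 to 1.21). Wdr5 was at 0.65 from 500 G2/M CPM upwards with 3000 to 6000 UMIs, from 2 control counts. The Wdr5 interval excluded 0 only from 500 upwards with 6000 to 12000 UMIs (-0.66).

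**Figure D3:**
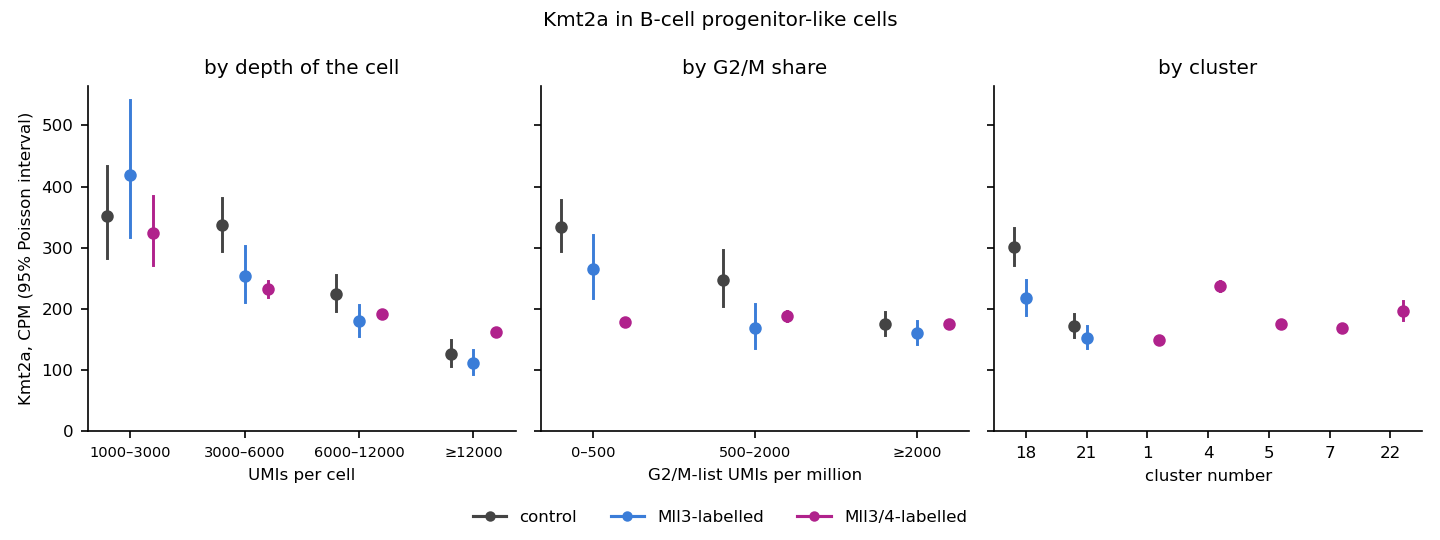
Kmt2a level in CPM (vertical axis) in B-cell progenitor-like cells, by UMIs per cell (left), G2/M CPM (middle) and cluster (right), for control, the Mll3-labelled and the Mll3/4-labelled library, with exact 95% Poisson intervals for counting error. With under 500 G2/M CPM control lay at 334.3 and the Mll3/4-labelled library at 177.9 CPM, and from 2000 upwards they lay at 175.2 and 175.8 CPM.

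In the Mll4-labelled library the scaffold subunit Wdr5 was higher and Dpy30 lower than control in every one of the 8 classes with enough cells. Wdr5 over all cells was at 61.5 CPM against 44.0 (log2 0.48, 0.41 to 0.55), and Dpy30 at 118.1 against 193.9 (-0.72, -0.76 to -0.67). Dpy30 was the 1 member of 9 past 1.5-fold over all cells, where 40.4% of all tested genes were. By class, control and Mll4-labelled Wdr5 stood at 35.8 and 64.3 CPM in HSC/MPP-like cells (0.84, 0.60 to 1.08), at 51.7 and 83.3 CPM in erythroid cells (0.69), at 39.1 and 68.6 CPM in granulocyte progenitors (0.81) and at 35.2 and 54.5 CPM in neutrophil-like cells (0.63). These 4 classes were past 1.5-fold, with a background of 33%, 31.8%, 39.2% and 27.4% of tested genes in that order. In the 4 other classes, with backgrounds of 30.9% in megakaryocyte-like and 34.5% in monocyte-like cells, the ratio was between 0.37 and 0.45, and 6 of the 8 intervals lay above 0.

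Dpy30 had intervals below 0 in all 8 classes, from -0.87 in basophil/mast-like cells (126.3 and 69.3 CPM), the class past 1.5-fold with a background of 39.9%, to -0.23 in HSC/MPP-like cells (148.8 and 127.1 CPM). Ash2l was above control in 8 of 8 classes (0.14 to 0.54, 6 intervals above 0), as in granulocyte progenitors with 59.6 and 86.8 CPM. Men1 was above control in 8 of 8 (0.04 to 0.58, 1 interval above 0), and Kmt2a below in 8 of 8 (-0.35 to -0.07, 3 intervals below 0). Such agreement of direction in 8 classes was seen for 43.8% of all genes tested in this library, and 5 of 9 members had it. TMM scaling lowered the class ratios by 0.10 to 0.31. Under the alternatives other than matching on depth or G2/M share, Wdr5 and Dpy30 kept their direction in each class, while Ash2l turned in 3 classes, Men1 in 5 and Kmt2a in 3. Setd1b in B-cell progenitor-like cells was past 1.5-fold lower (-0.89) from 8 counts, with an interval that included 0, and was the 1 of 9 members past the fold there, with a background of 41.1%.

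In some classes the control and Mll4-labelled cells filled different clusters. Control neutrophil-like cells were mostly in clusters 0 and 14 and Mll4-labelled ones in clusters 2 and 13. Granulocyte progenitors were mostly in cluster 17 in control and in cluster 16 in the Mll4-labelled library. Of the HSC/MPP-like cells, cluster 10 held 566 of 1584 in control and 34 of 394 in the Mll4-labelled library. Monocyte-like cells were all in cluster 12 and basophil/mast-like cells all in cluster 20 in both libraries. Weighted to the Mll4-labelled makeup, control Wdr5 was at 40.0 CPM (observed 61.5, log2 0.62), Dpy30 at 156.7 (observed 118.1, -0.41) and Ash2l at 50.5 CPM (observed 65.0, 0.37). Wdr5 was the 1 member of 9 past 1.5-fold in that comparison, with a background of 31.3%. Thinned to equal depth, Wdr5 and Dpy30 kept their direction in each class, while Kmt2a turned in granulocyte, megakaryocyte-like and monocyte classes. With 1 library each, sex and batch cannot be told apart from the deletion.

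**Figure D4:**
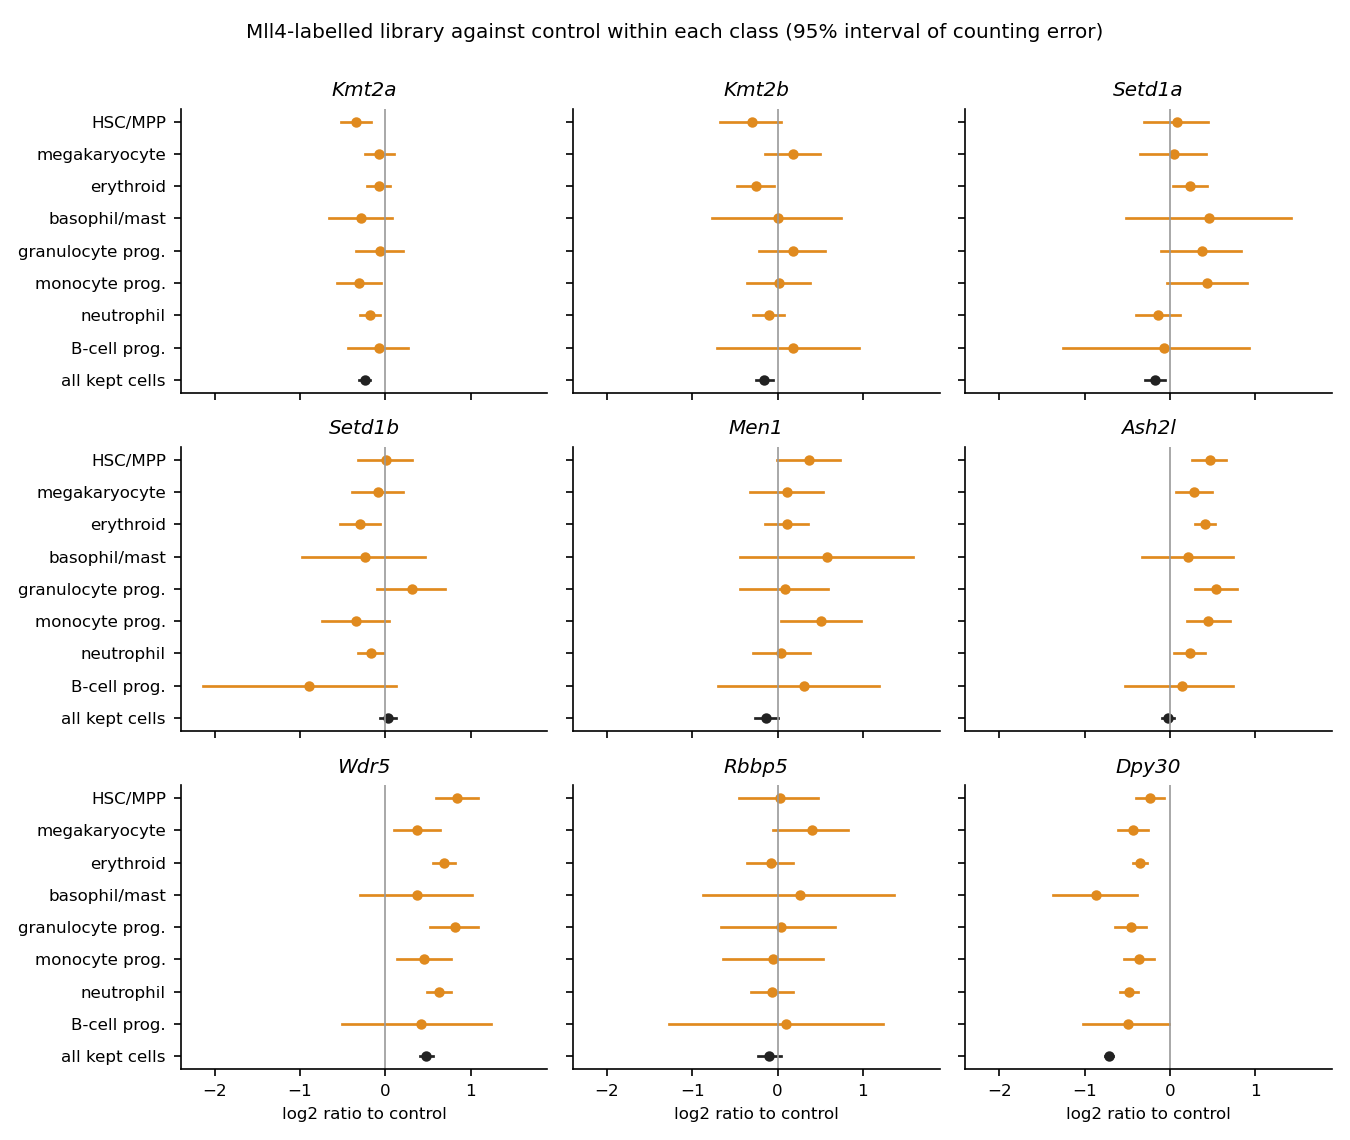
Log2 ratio of each member between the Mll4-labelled and the control library (horizontal axis) by cell class and, in black, over all kept cells, with exact 95% intervals for counting error. Wdr5 lay above 0 and Dpy30 below 0 in all 8 classes, with Wdr5 at 0.84 and Dpy30 at -0.23 in HSC/MPP-like cells.

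The Mll3-labelled library was close to control for all 9 members. Over all cells the log2 ratios ran from -0.08 for Setd1b to 0.07 for Rbbp5 and Dpy30, and Kmt2a was at -0.06. None of the 9 was past 1.5-fold, with a background of 12.4%. The same held in the stem and multipotent class, with a background of 8.2%. Within the B-cell progenitor class, where the background was 12.2% and again no member was past the fold, Kmt2a (-0.33, -0.50 to -0.17), Ash2l (-0.34, -0.65 to -0.02) and Dpy30 (0.26, 0.07 to 0.44) had intervals that excluded 0. No member had the same direction in all 8 classes of this library, as 13% of tested genes did. Rbbp5 was above control in 6 of 8 classes (1 interval above 0) and Wdr5 below in 7 of 8 (1 interval below 0). For Rbbp5 these include basophil/mast-like cells, with 19 control and 13 Mll3-labelled counts, under the minimum of 20.

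Genes known to need Kmt2a or Men1 in blood cells were taken as a list chosen with earlier results of these data known, so their levels are a description. In B-cell progenitor-like cells 8 of 10 tested genes were past 1.5-fold higher and 0 lower. Their median log2 ratio was 3.03, while 24.9% of all genes were higher and 17.6% lower. Of the 8, 4 had 5 to 10 control counts and Hoxa10 had 0, and these passed the minimum of 20 counts through the Mll3/4-labelled library. Hoxa10, with 0 control counts, could only be called higher. As the list was also chosen with results known, the count and median support nothing. The homeobox gene Hoxa9 had 3.15 CPM in the control cells (10 counts) and 72.7 CPM in the Mll3/4-labelled ones. Its cofactor gene Meis1 was at 7.56 and 51.1 CPM, and Eya1, a transcriptional coactivator, at 2.52 and 95.1 CPM. The cell cycle inhibitor gene Cdkn2c was at 107.1 and 240.7 CPM. Hoxa10 had 0 counts in the control cells and 13.6 CPM in the Mll3/4-labelled ones, at least 14.4-fold higher when set against 3 counts over the control cells, and the list median is also 3.03 with that gene at its bound. Over all cells 9 of 11 were higher and 1, the stem cell factor gene Mecom, was lower, with 9.96 and 0.50 CPM. Of all tested genes, 28.2% were higher and 28.8% lower over all cells, and the class makeup of the 2 libraries differed.

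The other genes of H3K4 methylation were counted from lists of the same origin, beside 24.9% of all tested genes higher and 17.6% lower in the class. In B-cell progenitor-like cells, 0 of 6 genes of the MLL3/4 complex were higher and 1, Kmt2d, was lower, at 40.3 CPM in the control and 24.7 CPM in the Mll3/4-labelled cells (-0.71). Of 7 partners particular to the MLL1/2 or SET1 complexes, 0 were past 1.5-fold. Of 5 H3K4 demethylases 1 was higher, Kdm1b, with 4.72 and 8.32 CPM. Of 5 further genes of the KMT2, SETD7 and SMYD families 3 were higher. These were Setd7, with 21.1 and 56.9 CPM, Smyd2, with 11.3 and 43.5 CPM, and Smyd5, with 8.19 and 13.4 CPM.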

How the data were processed

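The authors deposited raw UMI counts per gene and cell, made with Cell Ranger 6.1.2 on mm10 per the submitters' processing notes, from 10x 3′ version 3.1 libraries per the labels' protocols. The annotation release is not given in the sources used here. Deposited barcodes numbered 6622 to 10001 per library. Cells with at least 500 genes, at least 1000 UMIs and at most 10% mitochondrial UMIs were kept. Doublets were scored with Scrublet (scanpy 1.11.5, expected rate 0.06) and 5.29% to 8.01% of each library was removed from the top of the score, a rate of 0.8% per 1000 barcodes. All 4 libraries were clustered together from 2000 variable genes, 30 principal components and 15 neighbours with Leiden (resolution 1, seed 0). The variable genes excluded the 9 members, mitochondrial genes, Xist and genes of the Y chromosome. Clusters were named from marker lists, with at least 3 markers each in 10% of cells. Classes with at least 50 cells in a library were compared.

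Counts were summed over cells and given as CPM. A gene was tested with at least 20 counts in either library and was past the fold at 1.5. No replicate exists, so there is no p-value. Levels have exact Poisson and ratios exact conditional binomial intervals at 95% (scipy 1.17.1). Counts were not corrected for free RNA, and its part in the class levels was not tested. The comparison code was tested on simulated data. The named genes were all 9 members, list genes past the fold or the 3 with the largest ratios of a list, and for Kmt2a and Dpy30 the 3 genes with the most similar class pattern on log2 of CPM plus 1. Members, lists and markers were chosen with earlier results of these data known. Alternatives were TMM scaling (edgeR 4.0.16), the mean share per cell, thinning to 2000 UMIs, a total without marker genes, other count minimums, mitochondrial limits, clusterings and doublet settings. Matching on depth and on G2/M share, the total without marker genes and the pairs of members without the T/NK-like class were added after the data were seen.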

Additional observations from a re-analysis of the deposited data

How the results depend on the processing

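No paired analysis was possible because each group has 1 library. Of 130 recomputed values for 13 results that answer a comparison, 124 were within 1.5 times the reported count, none reversed and 6 moved, all of them when every cell was thinned to 2000 UMIs. Under thinning, the members past 1.5-fold became 1 in place of 0 in B-cell progenitor-like cells of the Mll3-labelled and of the Mll3/4-labelled library, 2 in place of 1 in HSC/MPP-like cells of the Mll4-labelled library, and 1 in place of 0 against the weighted control of the Mll3/4-labelled library. The combinations of member and library past 1.5-fold between hashtags over all cells became 1 in place of 0, and the members that kept their highest control class became 2 of 9, Kmt2a and Men1. Of 3146 values for single members, 248 moved. Low depth limits Rbbp5, Men1 and Setd1a in the small classes.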
